A study of Rattus norvegicus with 6 samples.

Results

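Fth1, Prdx1 and Gsta1 are 3 of the 1103 named genes on an array of rat heart RNA, chosen by gene symbol, and each is read by 1 probe. Fth1 encodes the heavy chain of ferritin, the shell in which cells store iron, and this chain carries the ferroxidase activity that oxidises iron before storage. Prdx1 encodes peroxiredoxin 1, a cytosolic enzyme that reduces hydrogen peroxide with electrons from thioredoxin. Gsta1 encodes an alpha class glutathione transferase, an enzyme that joins glutathione to reactive products such as those of lipid oxidation. The arrays hold total RNA from whole hearts of 3 rats put on cardiopulmonary bypass (CPB, where a machine oxygenates and pumps the blood) and of 3 sham-operated rats. The labels give no strain, age, sex, bypass time or sampling time, and they do not say whether the numbers 1 to 3 within each group mark animals handled together. No allele, drug or other treatment is named for either group. The comparison of CPB with sham hearts is read below as a description of iron and oxidant handling transcripts.

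As background, free iron turns hydrogen peroxide into hydroxyl radicals, so iron storage and peroxide removal act on the same chemistry. Blood passing through a bypass circuit is known to release haemoglobin from damaged red cells, and reperfused heart muscle is known to form oxidants. Ferritin is set largely at translation, where iron regulatory proteins bind an element at the start of its messenger RNA, so an RNA level is not a reading of ferritin protein. Prdx1 and many glutathione transferase genes are known targets of the transcription factor Nrf2 (gene Nfe2l2), which binds antioxidant response elements in promoters. RefSeq also lists Hbp23, a name for a haem-binding protein, as a synonym of Prdx1.

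The promoters are shown because antioxidant response elements are the best known control sequences of this gene group. The sequences come from the RefSeq promoter table for rat assembly GRCr8, which gives 250 bases before and 50 bases after a transcript start, and they are the reference, not a reading from these animals. Each is printed 5′ to 3′ on the strand of the gene. Capitals mark matches on either strand to the core of the antioxidant response element (TGACNNNGC), the AP-1 site (TGANTCA) or the TATA box (TATAAA). The Prdx1 stretch is chr5:135383656-135383905, plus strand, and the Gsta1 stretch is chr9:31216607-31216782, minus strand, shorter because the start used by the table lies inside the annotated gene.
Prdx1 upstream: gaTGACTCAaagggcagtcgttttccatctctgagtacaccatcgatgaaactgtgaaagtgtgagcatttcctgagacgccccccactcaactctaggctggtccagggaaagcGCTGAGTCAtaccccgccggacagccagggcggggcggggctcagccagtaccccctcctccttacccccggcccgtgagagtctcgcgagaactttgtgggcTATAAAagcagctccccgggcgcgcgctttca
Gsta1 upstream: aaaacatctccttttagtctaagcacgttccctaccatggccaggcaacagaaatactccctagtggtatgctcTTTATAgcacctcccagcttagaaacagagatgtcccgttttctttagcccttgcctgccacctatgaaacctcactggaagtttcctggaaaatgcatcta

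In Prdx1 the core match begins 135 bases before the start and reads on the antisense strand, and an AP-1 match beginning 133 bases before the start overlaps it. A further AP-1 match begins 248 bases before the start, and a TATA box match 32 bases before it. In Gsta1 the 250 bases before the start hold no core match, and the only TATA box match lies on the antisense strand, 176 bases before the start. The single Gsta1 core match begins at base 31 after the start used by the table, within chr9:31216484-31216512.
Prdx1 core with flanks: cagggaaagcGCTGAGTCAtaccccgccg
Gsta1 core with flanks: aactcaggcaTGACTTTGCatttttcttc
Of 33469 promoters of the same length in the table, 12.1% held the core, 7.33% the AP-1 site and 14.2% the TATA box on either strand. Of the 22 iron and oxidant handling genes measured on the array, 18 had a promoter entry and 4 of these held the core: Prdx1, Gsta1, Gstm7 and Nfe2l2. A match describes the letters and is not evidence of binding.

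The Fth1 gene lies at chromosome 1, 216052037 to 216054325, the Prdx1 gene at chromosome 5, 135383906 to 135399504, and the Gsta1 gene at chromosome 9, 31199887 to 31216606, all on GRCr8. The platform annotation does not give the part of the gene that a probe covers. RefSeq lists 6 other rat genes or pseudogenes named after Fth1 and 8 named after Prdx1, and 10 other alpha class glutathione transferase names, of which 3 share chromosome 9 with Gsta1. Older names of the Gsta1 locus include Gsta3 and Gsta5. Probe sequences were not used here, so whether a probe also reads such relatives was not tested.

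An array's signal came in equal steps above a lowest level, and a probe's distance from that level sets how finely it was measured. Fth1 lay 333, 478 and 88 steps above it on CPB arrays 1, 2 and 3, and 105, 295 and 55 steps above it on sham arrays 1, 2 and 3. Prdx1 lay 16, 55 and 4 steps above it on the CPB arrays and 11, 43 and 5 on the sham arrays. Gsta1 lay only 2, 6 and 1 steps above it on the CPB arrays and 3, 3 and 1 on the sham arrays. At those levels a single step changes the log2 value as deposited by 0.15 to 0.48 for Gsta1. The change is 0.025 to 0.23 for Prdx1 and at most 0.025 for Fth1. After the quantile normalization described below, a step can be wider. On sham array 3, Gsta1 at 1 step above the lowest level stood at 9.49, and Akr1b1 at 2 steps stood at 10.16. Fth1 was thus measured finely on all 6 arrays and Gsta1 coarsely, near the limit of the assay. The steps are a property of the probe and array and do not order the 3 transcripts by abundance.

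**Figure D1:**
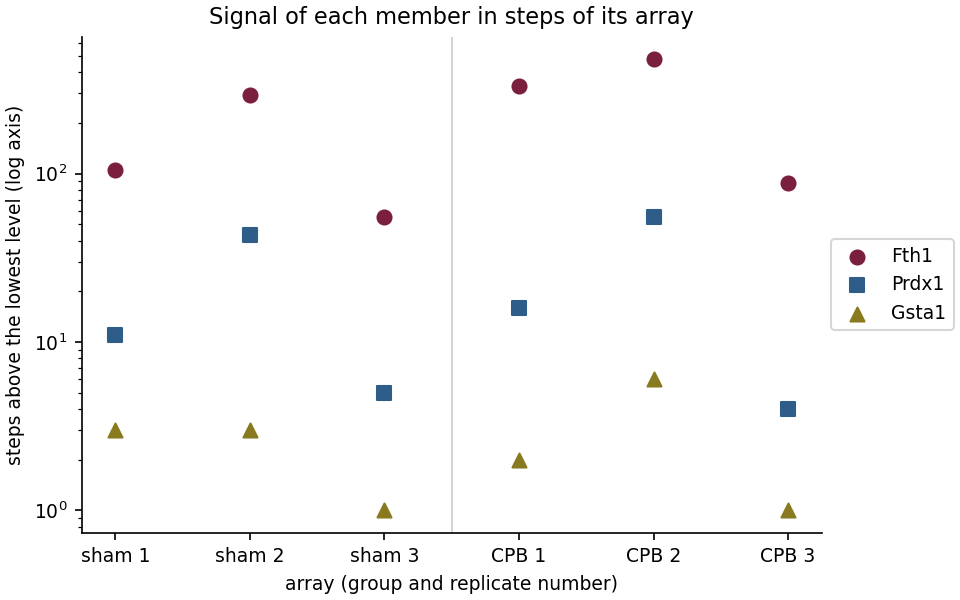
Steps above the lowest level of the array (vertical log axis) for Fth1, Prdx1 and Gsta1 on each of the 6 arrays (horizontal axis: sham 1 to 3, then CPB 1 to 3). Fth1 lies between 55 and 478 steps and Gsta1 between 1 and 6, with arrays numbered 3 lowest in both groups.

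The 6 arrays carry 1185 probes, and 498 of these exceeded the lowest level on every array. Median log2 intensity as deposited differed between arrays, from 8.51 to 9.84, so arrays were quantile normalized before testing. That choice matters for single genes. The median difference between CPB and sham over all probes was -0.03 on the log2 scale after quantile normalization, -0.29 in the deposited values and 0.11 with arrays scaled to a common median. The hearts carried their tissue's markers: 6 of 15 cardiomyocyte genes of the list were measured (Myh6, Tnni3, Tnnt2, Pln, Ckm and Casq2), each at least 13 steps above the lowest level on all arrays. Their summed normalized log2 level was 19.23 to 19.26 in CPB and 19.22 to 19.30 in sham hearts. Quantile normalization gives all arrays the same set of values, so sums over such bright probes can differ little after it. In the deposited values the sums were 19.32 to 19.445 in CPB and 18.91 to 19.36 in sham hearts. Cardiomyocyte content was not tested. Of the genes listed for erythroid and for endothelial cells, 0 of 10 and 0 of 8 were measured, so no value on these arrays shows red cell content.

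Across all probes, the limma fit (Benjamini-Hochberg adjustment, threshold 0.05) called 0 of 1185 (0%) between CPB and sham, and 35 (2.95%) had an unadjusted p under 0.05. None of the 3 genes was called. Groups did not overlap for 4.22% of all probes, and they overlapped for all 3 genes. In whole-heart RNA, fewer cells of a type and less RNA per cell cannot be told apart. Each difference was smaller than the pooled SD between hearts of a group, which was 0.50 for Fth1, 0.67 for Prdx1 and 0.34 for Gsta1.

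Fth1, the iron storage gene, had normalized log2 intensities of 15.69, 15.05 and 14.68 in CPB hearts 1, 2 and 3. In sham hearts 1, 2 and 3 it stood at 15.21, 15.05 and 14.30. CPB heart 1 was the highest of the 6 and sham heart 3 the lowest, and the groups overlapped in between. The CPB mean was 15.14 ± 0.51 (SD, n = 3) and the sham mean 14.85 ± 0.48 (SD, n = 3). The log2 difference of 0.29 (SE 0.33, 95% interval -0.42 to 1.00), or 1.22-fold, did not pass the threshold (limma adjusted p = 0.937).

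The size of the Fth1 difference depended on scaling and on single hearts, while its sign was positive in all but 1 alternative. It was 0.51 in the deposited values and 0.90 after scaling to a common median. Taken against the median probe, it was 0.32 after quantile normalization and 0.80 under both of those settings. After quantile normalization, the value of so bright a probe is set by its rank, which ran from 7 on CPB array 1 to 16 on sham array 3. Without CPB heart 1 the difference was -0.0007, and without sham heart 3 it was 0.03. Without CPB heart 3 it was 0.55 and without sham heart 1 it was 0.46.

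Prdx1, the peroxide-reducing gene, had normalized log2 intensities of 11.72, 12.18 and 10.81 in CPB hearts 1, 2 and 3. Sham hearts 1, 2 and 3 were at 12.05, 12.35 and 11.13. Both hearts numbered 2 were high and both numbered 3 were low, so the ranges of the groups largely coincided. The arrays themselves differed by number as well. At the lowest level were 47.3% of probes on CPB array 3 and 43.3% on sham array 3. On CPB array 2 and sham array 2 the shares were 10.7% and 20.5%. Whether the Prdx1 pattern belongs to the hearts or to the arrays was not tested. The CPB mean was 11.57 ± 0.70 (SD, n = 3) and the sham mean 11.84 ± 0.63 (SD, n = 3). The log2 difference was -0.28 (SE 0.39, 95% interval -1.10 to 0.55), or 0.83 of the sham level, with a limma adjusted p of 0.974.

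Hearts of the same number stood close together for Prdx1, and the CPB heart was the lower of each such pair. The CPB minus sham difference in normalized log2 intensity was -0.33 for number 1, -0.17 for number 2 and -0.33 for number 3. In the deposited values it was -0.25, -0.24 and -0.37. Of all probes, 6.5% were lower in the CPB heart at all 3 numbers after quantile normalization and 32.9% in the deposited values. The replicate number accounted for 93.5% of the Prdx1 sum of squares over the 6 normalized values and the group for 6.08%. Over the 498 probes above the lowest level on all arrays, the median share of the number was 51.9% and that of the group 10.7%. With the number as a block in the fit, the Prdx1 difference kept its size with an SE of 0.093 (limma with the block, unadjusted p = 0.0548, adjusted p = 0.724). That fit gave 3.21% of all probes an unadjusted p under 0.05. With the block on the deposited values, chosen after seeing the data, the Prdx1 difference of -0.29 had an SE of 0.27 (limma with the block, unadjusted p = 0.287, adjusted p = 0.796).

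The sign of the Prdx1 difference turned with scaling. After scaling to a common median it was 0.10, and relative to the median probe it was -0.25 after quantile normalization and -0.0014 in the deposited values. A deposited difference of -0.29 is therefore that of the median probe. Single hearts moved it as well, to 0.11 without CPB heart 3, -0.02 without sham heart 2, -0.15 without sham heart 1, -0.59 without CPB heart 2 and -0.64 without sham heart 3.

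Gsta1, the glutathione transferase, had normalized log2 intensities of 9.49, 9.73 and 9.52 in CPB hearts 1, 2 and 3. In sham hearts 1, 2 and 3 the values were 10.32, 9.52 and 9.49. Sham heart 1 stood above the other hearts, which lay between 9.49 and 9.73. Gsta1 nevertheless lay 3 steps above the lowest level on sham array 1 and on sham array 2 alike. On sham array 1, Alad and Urod at 2 steps stood at 9.76, beside 10.32 for Gsta1 at 3 steps. The CPB mean was 9.58 ± 0.13 (SD, n = 3) and the sham mean 9.78 ± 0.47 (SD, n = 3). CPB was thus lower by a log2 difference of -0.19 (SE 0.36, 95% interval from -0.96 to 0.57), which missed the threshold (limma adjusted p = 0.999). Without sham heart 1 the difference was 0.05. It was -0.32 without sham heart 2 and -0.36 without sham heart 3. In the deposited values the difference was -0.40, against -0.0019 after scaling to a common median.

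By replicate number, Gsta1 differed between the CPB and sham heart by -0.82 for number 1, 0.21 for number 2 and 0.03 for number 3. In the deposited values it differed by -1.30, 0.20 and -0.09, so no direction was shared in either. On both arrays numbered 3, Gsta1 lay 1 step above the lowest level. Fth1 differed by 0.49, 0.00 and 0.38. In the deposited values Fth1 was higher in the CPB heart at all 3 numbers, by 0.95, 0.09 and 0.49. Of all probes, 5.15% were higher at all 3 numbers in the deposited values and 7.51% after quantile normalization.

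**Figure D2:**
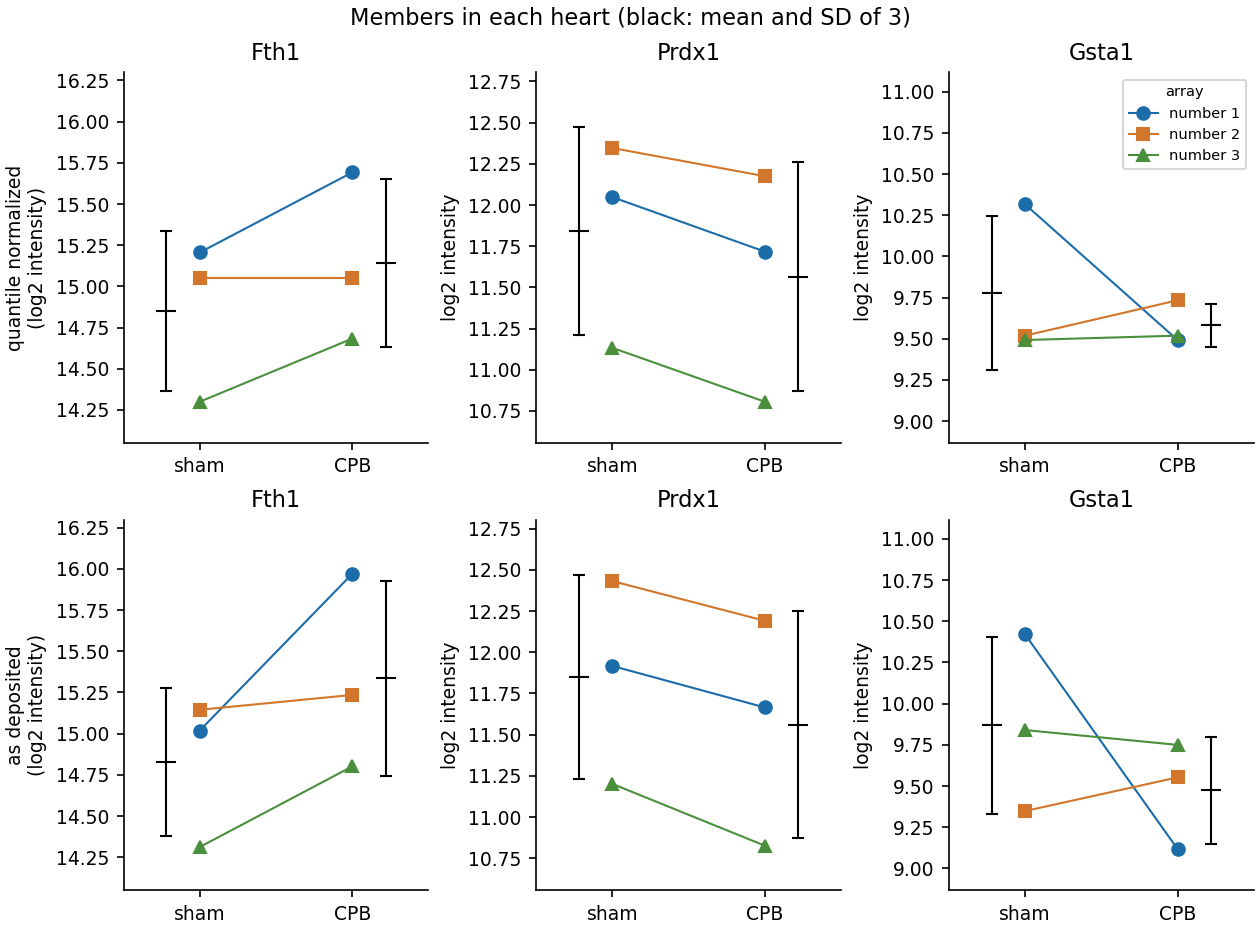
Log2 intensity of Fth1, Prdx1 and Gsta1 (columns) in each sham and CPB heart, after quantile normalization (top) and as deposited (bottom). Lines join hearts of the same replicate number, black bars give the mean and SD of 3 hearts, and the vertical axes span the same number of log2 units. All 3 Prdx1 lines slope slightly down from sham to CPB, Fth1 is highest in CPB heart 1, and Gsta1 in sham heart 1. There Gsta1 lies only 3 steps above the lowest level.

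Spread is given over all 6 hearts. The SD of the normalized log2 values was 0.61 for Prdx1, larger than that of 89.0% of the 498 probes above the lowest level on all arrays. It was 0.47 for Fth1, larger than 75.7% of them, and 0.33 for Gsta1, larger than 39.4%, against a median SD of 0.35. The 6 hearts covered 1.54 log2 units for Prdx1, 1.39 for Fth1 and 0.82 for Gsta1. In the deposited values the ranges were 1.61, 1.66 and 1.30, so Prdx1 and Fth1 changed places and Gsta1 widened. The deposited SD was larger than that of 86.7% of the 498 probes for Prdx1, 79.1% for Fth1 and 60.8% for Gsta1. The order of the hearts in normalized values differed between the genes. For Prdx1 it ran from sham 2 and CPB 2 at the top to sham 3 and CPB 3 at the bottom, and each gap between neighbours was smaller than the SD of either group. For Fth1 it ran from CPB 1 and sham 1 to CPB 3 and sham 3, with CPB 2 and sham 2 tied between them. The widest gap between neighbours for Fth1, 0.49 between CPB 1 and sham 1, was close to the SD of either group. For Gsta1, sham 1 was followed by CPB 2, and the other hearts were at 9.49 or 9.52.

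**Figure D3:**
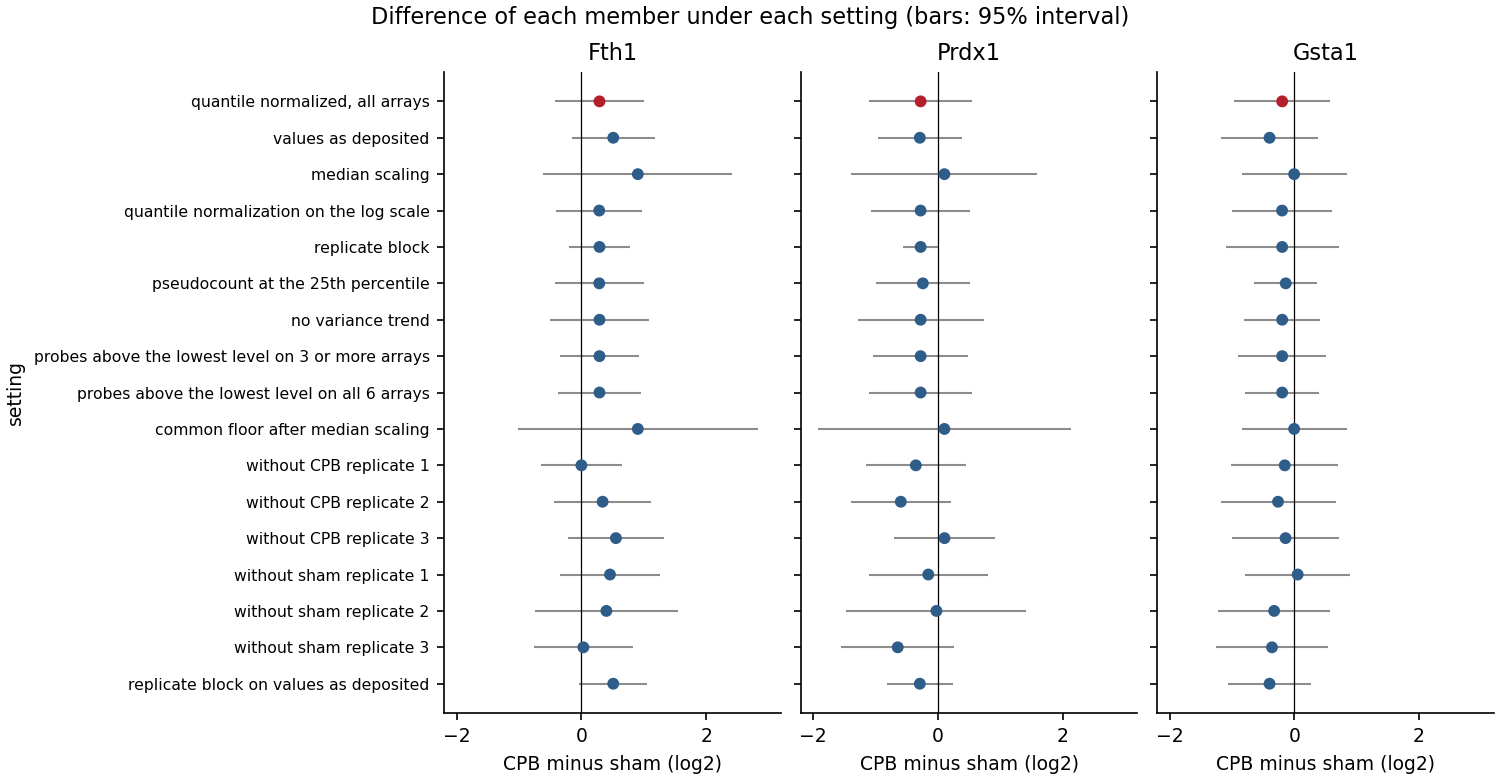
CPB minus sham difference in log2 intensity (horizontal axis) for each gene under each processing setting (rows), with 95% intervals as bars and the reported fit in red. All intervals shown include 0 for Fth1, for Prdx1 and for Gsta1, the points of Fth1 lie at or above 0 apart from -0.0007 without CPB heart 1, and those of Prdx1 lie on both sides of 0.

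Ratios between probes of the same array are not moved by a single scale factor of that array. Arrays whose values differ in more than scale can still move the ratio of a bright over a dim probe. The log2 ratio of Fth1 over Prdx1 in the deposited values was 4.31, 3.04 and 3.98 in CPB hearts 1, 2 and 3. It was 3.10, 2.71 and 3.11 in sham hearts 1, 2 and 3. CPB hearts 1 and 3 lay above all sham hearts, while CPB heart 2 lay within the sham range. The means were 3.77 ± 0.65 (SD, n = 3) and 2.98 ± 0.23 (SD, n = 3), a difference of 0.80 (exact two-sided permutation p = 0.3, 0.45 adjusted over 3 ratios). The smallest p that 3 against 3 hearts allow is 0.1. The CPB heart had the higher ratio at each number, by 1.20, 0.33 and 0.86, and the exact sign-flip p was 0.25, the smallest that 3 pairs can give. Without CPB heart 1 the difference was 0.53 and without CPB heart 2 it was 1.16. In quantile normalized values it was 0.57 (exact permutation p = 0.3).

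The ratios with Gsta1 carried its coarse steps. Fth1 over Gsta1 was 6.85, 5.68 and 5.05 in CPB hearts 1, 2 and 3, and 4.60, 5.80 and 4.47 in sham hearts 1, 2 and 3. The difference was 0.91 (exact permutation p = 0.3, adjusted 0.45), and it was 0.41 without CPB heart 1 and 0.48 in quantile normalized values. Prdx1 over Gsta1 was 2.55, 2.64 and 1.08 in CPB hearts 1, 2 and 3, with a mean of 2.09 ± 0.88 (SD, n = 3). In sham hearts it ran from 1.36 in heart 3 to 3.08 in heart 2, with a mean of 1.98 ± 0.96 (SD, n = 3). Its difference of 0.11 had an exact permutation p of 1 and turned negative without CPB heart 1 (-0.12), CPB heart 2 (-0.17), sham heart 1 (-0.14) or sham heart 3 (-0.20).

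**Figure D4:**
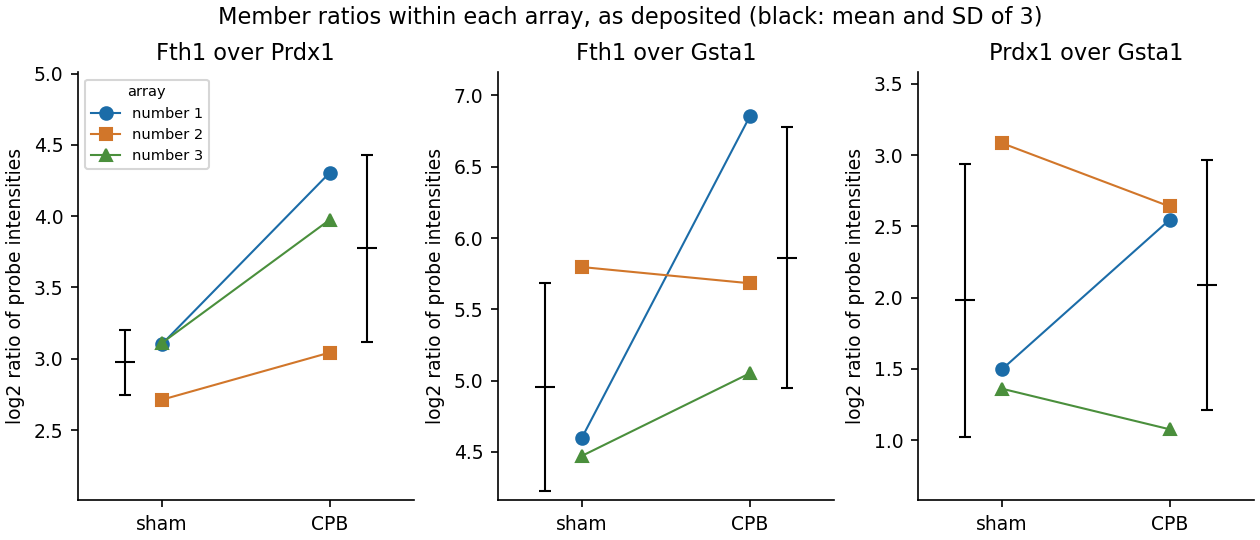
Log2 ratio of probe intensities within each array for the 3 pairs of genes (panels), in sham and CPB hearts, from the deposited values. Lines join hearts of the same replicate number and black bars give the mean and SD of 3. The Fth1 over Prdx1 lines all slope up, by 1.20, 0.33 and 0.86, whereas the lines of the other ratios differ in direction.

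Of 225 iron and oxidant handling genes on the lists, 22 were measured, and 14 of these exceeded the lowest level on each array. None of the 22 was called (limma adjusted p of at least 0.909). Of the 22, 10 had a positive and 12 a negative difference, with a median of -0.05 (Ireb2, at the lowest level on most arrays, included), beside 501 positive and 622 negative among all probes. Groups were apart for 2 of the 22, Selenop and Hif1a, beside the 4.22% of all probes given above.

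Among 4 measured iron genes, the metal ion transporter Slc11a2 differed by 0.11 (SE 0.34) and haptoglobin (Hp), the plasma protein that binds free haemoglobin, by -0.37 (SE 0.38). Hp was at the lowest level on CPB array 3 and sham array 1 and lay 5 steps above it on sham array 2, its highest. The iron regulatory protein gene Ireb2 sat at the lowest level on the 3 sham arrays as well as on CPB array 3, and only 1 and 2 steps above it on CPB arrays 1 and 2, so no fold is given. Of the other 3 iron genes, Fth1 and Slc11a2 were positive and Hp negative. Slc11a2 lay only 1 to 5 steps above the lowest level, and its deposited difference was -0.16. The 3 measured genes of haem synthesis were all positive: Alas1, the first enzyme of the pathway, at 0.39 (SE 0.45), Alad at 0.11 (SE 0.35) and Urod at 0.11 (SE 0.34). Their median of 0.11 was -0.08 in the deposited values and 0.31 after scaling to a common median, where the median over all probes was -0.29 and 0.11, and Alas1 was at the lowest level on sham array 3. Alad and Urod lay 1 to 7 steps above the lowest level, with deposited differences of -0.17 and -0.08, against 0.19 for Alas1. No iron or haem gene passed the test.

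The 4 measured peroxidase and selenoprotein genes, Prdx1 among them, were all negative after quantile normalization, with a median of -0.30. That median was -0.35 in the deposited values and 0.05 after scaling to a common median. The medians over all probes there were -0.29 and 0.11. After scaling to a common median Prdx1 was at 0.10 and Prdx6 at 0.39, while Selenop and Selenow stayed negative. Prdx6, a peroxiredoxin that also acts on phospholipids, averaged 11.86 ± 0.23 (SD, n = 3) with CPB against 11.92 ± 0.54 (SD, n = 3) with sham surgery and differed by -0.06 (SE 0.32). Unlike Prdx1, it was highest in both hearts numbered 3, at 12.13 in CPB and 12.54 in sham. Selenop, which carries selenium in plasma, was at 10.35, 10.75 and 10.81 in CPB hearts 1, 2 and 3 and at 10.88, 11.13 and 10.87 in sham hearts 1, 2 and 3. The groups did not overlap, although CPB heart 3 nearly reached the lowest sham value, that of sham heart 3. On both of these arrays Selenop lay 4 steps above the lowest level. The difference was -0.33 (SE 0.30, limma adjusted p = 0.909), and -0.05 after scaling to a common median. Selenow, a small selenoprotein of muscle, differed by -0.51 (SE 0.47) and lay 1 step above the lowest level on CPB array 3.

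In the glutathione list, Slc3a2, a subunit of the cystine and amino acid transporters, averaged 12.30 ± 1.06 (SD, n = 3) with CPB against 11.75 ± 0.36 (SD, n = 3) with sham surgery. Its difference of 0.55 (SE 0.42) opposed those of Gsta1, of the mu class transferase gene Gstm7 at -0.24 (SE 0.38) and of Cbs, an enzyme on the route from homocysteine to cysteine, at -0.18 (SE 0.33). Cbs lay 1 or 2 steps above the lowest level on every array, and Gstm7 was at it on CPB array 3. The median of the 4 was -0.19, against -0.38 in the deposited values and 0.01 after scaling to a common median. The medians over all probes there were -0.29 and 0.11.

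Among detoxifying enzymes, Cbr1, a carbonyl reductase, had the largest positive difference of the 22 genes, 0.62 (SE 0.41, 95% interval -0.25 to 1.49; limma adjusted p = 0.909). It stood at 10.99, 11.46 and 10.09 in CPB hearts 1, 2 and 3 and at 10.69, 10.50 and 9.49 in sham hearts 1, 2 and 3. The CPB heart was higher at each number, although the groups overlapped. That direction at all 3 numbers was found for 7.51% of all probes after quantile normalization. At number 3, Cbr1 cleared the lowest level by only 2 steps in CPB and by 1 step in sham. Akr1b1, aldose reductase, differed by -0.26 (SE 0.33) and lay 1 to 8 steps above the lowest level. Ephx1, microsomal epoxide hydrolase, differed by -0.45 (SE 0.21; limma adjusted p = 0.909). Its signal was never more than 2 steps above the lowest level, which it did not exceed on CPB arrays 1 and 3 and sham array 3.

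The remaining measured genes were mostly dim. Cyba, a subunit of the NADPH oxidases that make superoxide, differed by 0.07 (SE 0.36), with 1 to 6 steps above the lowest level. Nfe2l2, the gene of Nrf2, and Atp7a, a copper pump, were at the lowest level on 3 and 4 of the 6 arrays, and each differed by -0.05 (SE 0.19). Hif1a encodes a subunit of an oxygen-regulated transcription factor, and its values were 9.49, 9.52 and 9.52 in CPB hearts 1, 2 and 3 and 9.20, 8.99 and 8.68 in sham hearts 1, 2 and 3. The groups were apart, with a difference of 0.55 (SE 0.32, limma adjusted p = 0.909), but the probe was only 0 to 5 steps above the lowest level. These 4 genes were all read near the limit of the assay.

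**Figure D5:**
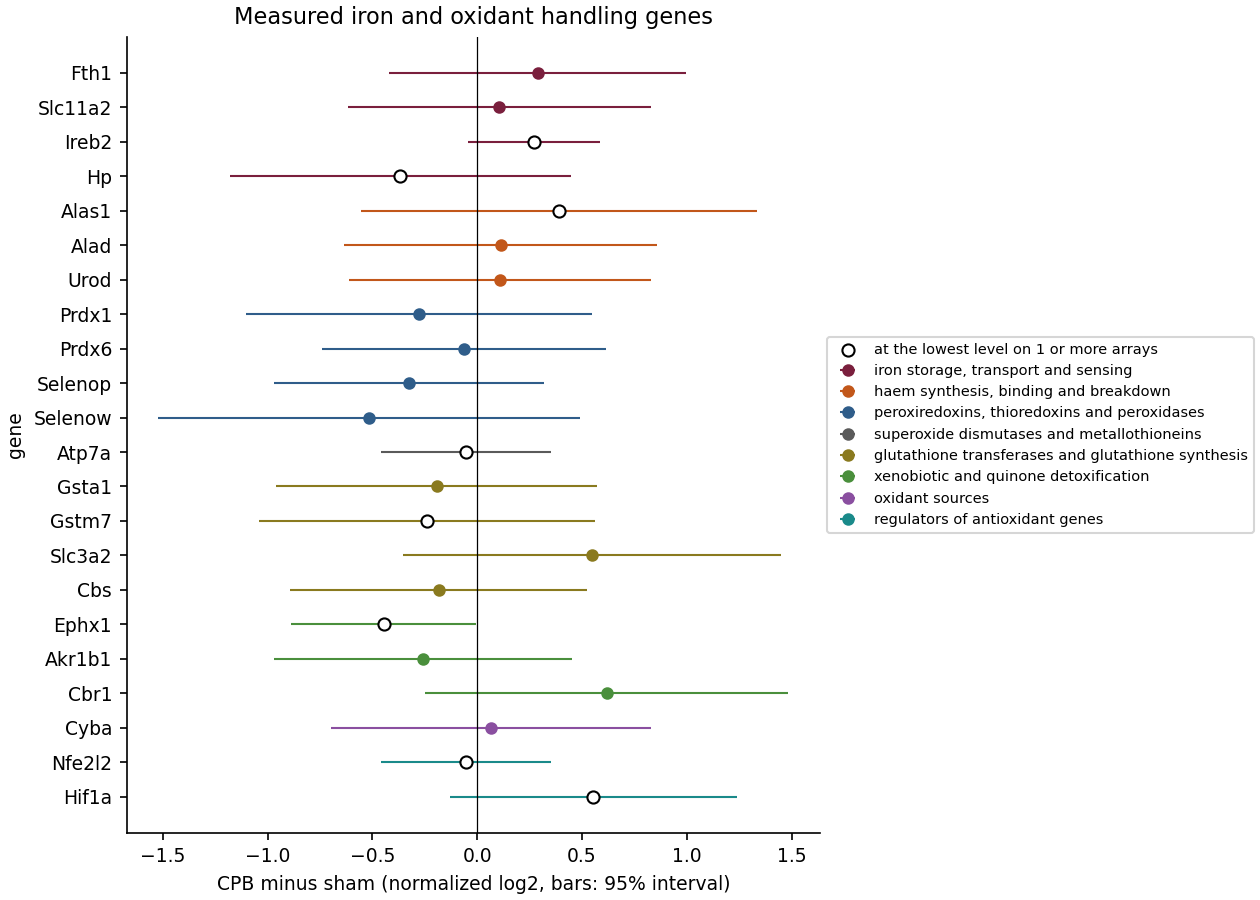
CPB minus sham difference in normalized log2 intensity with 95% intervals for the 22 measured iron and oxidant handling genes, coloured by list, with open circles for genes at the lowest level on 1 or more arrays. Intervals include 0 for all of them but Ephx1, whose interval ends at -0.0036, and 8 of the 22 have open circles.

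Markers of other cell types are given beside these genes, as summed levels with no test. The 3 measured macrophage and monocyte markers of 13 (Aif1, C1qb and Lyc2) summed to a normalized log2 level of 12.51 to 12.72 in CPB and 12.99 to 13.28 in sham hearts, with Aif1 at the lowest level on some arrays. The 2 measured fibroblast markers of 8 (Dcn and Sparc) summed to 13.47 to 14.42 in CPB and 14.95 to 15.15 in sham hearts. For both lists the groups were apart, also in the deposited values. The 4.22% given above counts single normalized probes, and no such share was computed for sums. A sum does not show whether each of its genes differed in the same direction. The single neutrophil marker, S100a9, overlapped, with 9.49 to 11.39 in CPB and 10.88 to 12.47 in sham hearts, as did the sum of 2 smooth muscle markers (Myh11 and Tagln), at 12.92 to 13.83 and 13.03 to 13.41. The hepatocyte marker Ahsg was at or near the lowest level on all arrays. The part of these cells in the Fth1, Prdx1 and Gsta1 values was not tested.

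The genes whose pattern over the 6 arrays was most like each member were sought among the other 468 named probes above the lowest level on all arrays. For Prdx1 these were Rps24, a ribosomal protein gene (Pearson's r = 0.97), Cltb, a clathrin light chain (0.96), and Hnrnpm, an RNA-binding protein (0.96). Spearman's rho was 0.94, 0.99 and 0.94, so the order of the hearts was nearly that of Prdx1. For Fth1 they were Akr1d1, a steroid reductase (Pearson's r = 0.96), the kinase gene Taok1 (0.94) and Ssb, which encodes the La RNA-binding protein (0.90). Spearman's rho for these was 0.90, 0.81 and 0.81. For Gsta1 they were N5 (Pearson's r = 0.94), Cd59b, a complement inhibitor (0.94), and Mgat3, a glycosyltransferase (0.92), with a Spearman's rho of only 0.54, 0.37 and 0.34. Some of these genes were dim. Akr1d1 and Ssb lay only 1 step above the lowest level on both arrays numbered 3. N5 lay 3, 6 and 1 steps above it on the CPB arrays and 3, 3 and 1 on the sham arrays, nearly the steps of Gsta1. Pearson's r for Gsta1 gives much weight to the single high value of sham heart 1, which rho does not. All these values are the highest of many over 6 arrays that share the replicate number structure, and they are given as a description.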

How the data were processed

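The single deposited table holds natural log values for 1185 probes on 6 arrays, as read from the values, since the labels state no unit. Values equal to 2 times the hyperbolic sine of the deposited values fell on equal steps above a lowest level on each array (80.1 to 359.6 linear units per step). How the authors scanned and scaled the arrays is not given in the sources used here. Groups and replicate numbers came from sample titles. Nothing in the labels says how the animals were paired or processed, so p-values measure the spread between these samples.

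Values were returned to the linear scale, quantile normalized, and converted to log2 without a pseudocount. Differences were tested over all 1185 probes with limma (version 3.58.1, R version 4.3.3), using lmFit and trended eBayes, two-sided p-values and a Benjamini-Hochberg threshold of 0.05. The fit was tested on simulated data. The simulated noise was normal and independent, without the steps, the lowest level or the replicate number structure of these arrays. Alternatives were other scalings, filters, a pseudocount, no variance trend, the replicate number as a block, and leaving out each array. The block on deposited values was chosen after seeing the data. Ratios were tested with exact permutation in SciPy 1.17.1. The number of arrays, 3 per group, limits the precision. Platform symbols named 1113 probes, 2 carried several symbols and 70 none, and 1106 matched the RefSeq gene table by gene identifier. The brightest probe stood for a gene. The genes named are the members, every measured gene of the pathway lists, and for each member the 3 with the highest Pearson's r. Members and lists were chosen with earlier results of these data known. Marker genes are named by list.

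Deviations from the group means correlated between same-numbered arrays at 0.240, 0.277 and 0.296 after quantile normalization (0.0584, 0.300 and 0.442 as deposited). Arrays of different number were not compared. Same-numbered arrays could also be alike in signal: 47.3% of probes were at the lowest level on CPB array 3 and 43.3% on sham array 3. Whether the replicate numbers mark pairs of animals was not tested, and no label states a pairing.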

Additional observations from a re-analysis of the deposited data

How the results depend on the processing

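Of 16 alternatives per gene, 15 kept the direction for Fth1, 13 for Prdx1 and 15 for Gsta1, and none brought a member past the threshold (limma adjusted p from 0.724 to 1). Prdx1 reversed to 0.105 with median scaling, to 0.105 with a common floor after median scaling and to 0.107 without CPB replicate 3. Fth1 reversed to -0.000727 without CPB replicate 1 and Gsta1 to 0.0546 without sham replicate 1. Leaving out single arrays gave -0.000727 to 0.553 for Fth1, -0.644 to 0.107 for Prdx1 and -0.358 to 0.0546 for Gsta1. For the ratios it gave 0.534 to 1.16 (Fth1 over Prdx1), 0.411 to 1.33 (Fth1 over Gsta1) and -0.202 to 0.658 (Prdx1 over Gsta1). Prdx1 over Gsta1 also reversed to -0.0822 with quantile normalized values, and to -0.123, -0.169, -0.135 and -0.202 without CPB replicate 1, CPB replicate 2, sham replicate 1 and sham replicate 3.

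The number of probes past the threshold was 0 in the main setting, 1 in the values as deposited, 1 with probes above the lowest level on 3 or more arrays, 1 without CPB replicate 1 and 0 without any other single array. Blocking on the replicate number gave 0, and 2 on the values as deposited, an alternative chosen after seeing the data. After quantile normalization the block changed no call. The pathway median was -0.0538, moved to -0.264 in the values as deposited (all probes -0.288), turned to 0.13 with median scaling (all probes 0.106) and 0.116 with a common floor, and to 0.00124 with probes above the lowest level on all arrays, and ran from -0.0497 to 0.0506 without single arrays. Causes were not tested. Signal over the lowest level limits Gsta1 and the dim pathway genes most.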
